A study of Mus musculus with 4 samples.

Results

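Potassium channel genes were examined in whole adult mouse kidney. The members were genes whose symbol is Kcn, then lower-case letters, then a number. Not every gene with such a symbol was taken, and what was left out is not reported here. The members were 91 of the 54232 genes of the table, in 20 subfamilies (Kcna, Kcnj and so on). The subfamilies were grouped here into 6 structural classes. RNA sequencing of polyadenylated RNA compared mice that carry 1 LacZ allele of the zinc-finger gene Tshz3 (genotype Tshz3+/LacZ, called HET) with wild-type mice (WT), all at 60 days of age. There were 2 libraries for each genotype. Kidney RNA was pooled in equal proportion, with 3 kidneys named for each group (whether the 2 pools of 1 genotype came from the same kidneys is not stated). The p-values therefore measure only the spread between pools. That spread may be technical in part, which was not tested, and the pools of 1 genotype differed in sex-linked transcripts, given below. The sources used here give no sex, strain or description of the LacZ allele.

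Potassium channels let potassium ions cross membranes down their gradient. In kidney tubules, basolateral channels recycle the potassium brought in by the sodium pump and keep the cell interior negative, which drives salt, bicarbonate and amino acid uptake, while apical channels of the distal nephron secrete potassium into urine. Inward rectifiers are tetramers of subunits with a pair of membrane helices, tandem-pore channels carry a pair of pore loops in each subunit, and voltage-gated channels open on depolarisation. Silent modifiers form no channel alone but join voltage-gated subunits, calcium- or sodium-activated channels open with intracellular ions, and auxiliary subunits form no pore and tune the others.

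The shared mark of a pore is the selectivity filter, whose carbonyl groups hold potassium ions in single file. It was looked for as the potassium channel signature, an in-frame run of 5 codons: the first begins with AC, the second has T in its middle, the third and the last begin with GG, and the fourth begins with TA or TT. The search used the coding strand of GENCODE M21 coding sequences (build GRCm38, the same assembly as mm10). Of the 76 members in pore-forming classes, 63 held it (82.9%), and of the 15 auxiliary members 0 did. Over all protein-coding genes, members included, the share was 0.598%, or 129 of 21581. Over those other than members it was 0.307%, or 66 of 21490. Examples from abundant members and from those with the lowest p in their class are shown with 15 bases on each side, the pattern in capitals.
Kcnj16: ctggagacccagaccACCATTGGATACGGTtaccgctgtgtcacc
Kcnj15: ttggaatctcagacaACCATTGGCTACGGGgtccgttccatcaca
Kcnk5, first pore: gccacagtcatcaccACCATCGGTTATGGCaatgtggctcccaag
Kcnk5, second pore: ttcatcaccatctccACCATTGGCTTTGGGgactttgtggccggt
Kcnt1: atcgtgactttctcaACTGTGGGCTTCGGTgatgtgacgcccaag
Kcng1: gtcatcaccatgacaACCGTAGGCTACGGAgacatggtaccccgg

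These stretches lie, in mm10, at chr11:111024889-111024933 (Kcnj16, plus strand), chr16:95295965-95296009 (Kcnj15, plus), chr2:25894352-25894396 (Kcnt1, plus) and chr2:168262626-168262670 (Kcng1, minus). Both stretches of Kcnk5, on chromosome 14, cross an exon junction. The fourth codon of the pattern differed between members: it began with TT in Kcnt1 and the second pore of Kcnk5, and with TA in the other stretches shown. Within classes, all 10 silent modifiers, 13 of 14 inward rectifiers, 12 of 14 tandem-pore genes (11 of them with 2 matches), 23 of 30 voltage-gated genes and 5 of 8 calcium- or sodium-activated genes held the pattern. The 7 voltage-gated genes without it were all of the Kcnh subfamily, and a missing match says only that these letters are not there in frame.

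The libraries held 62631750 and 70792042 reads in HET replicates 1 and 2, and 70319173 and 70717617 in WT replicates 1 and 2. Levels are given as TPM, transcripts in 1000000, which allow for gene length, scaled between libraries. Tshz3, the gene carrying the LacZ allele, was at 0.833 and 0.760 TPM in the libraries labelled HET, against 0.653 and 0.723 TPM in the WT libraries. It was thus not lower in HET, the level did not bear out the labels, and every direction below is that of the libraries as labelled. The deposited value sums all exons, so exons kept in the LacZ allele may be included. Kidney tubule markers were abundant in all 4 libraries, with a sum over 5 proximal tubule markers of 3189 and 3156 TPM in HET and 3891 and 3291 TPM in WT. Pools also differed in sex-linked transcripts. Xist was at 60.5 and 57.7 TPM in HET, against 18.1 and 39.7 TPM in WT, and Ddx3y, on the Y chromosome, at 4.02 and 17.0 TPM in HET, against 21.1 and 16.2 TPM in WT. The part of these differences in the results below was not tested. In RNA from whole kidney, fewer cells of a type and less RNA per cell cannot be told apart.

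Inward rectifiers made up most of the summed level of the members, which do not include every potassium channel gene of the kidney. Kcnj16 alone held 47.9% of the summed member level, Kcnj16 and Kcnj15 together 76.7%, and the top 4 members, which add Kcnk5 and Kcnk1, 90.1%. In all, 6 members averaged at least 10 TPM, 22 lay from 1 to 10 TPM, 34 from 0.1 to 1 TPM and 29 below 0.1 TPM. No read was found for Kcnk15, Kcnk18 or Kcns2, where 3 reads, the limit that a count of 0 allows, would be at most 0.0514, 0.0339 and 0.0184 TPM in any library. These limits cover counting error only. Summed over the class, inward rectifiers were at 950 and 777 TPM in HET and 1089 and 942 TPM in WT, tandem-pore channels at 165 and 160 TPM in HET and 159 and 169 TPM in WT, and voltage-gated channels at 39.1 and 34.1 TPM in HET and 27.3 and 31.5 TPM in WT. Calcium- or sodium-activated channels summed to 10.1 and 10.3 TPM in HET and 7.0 and 7.72 TPM in WT. Both HET sums lay above both WT sums for this class and for the voltage-gated class, while the groups overlapped for the inward rectifiers and the tandem-pore channels. For silent modifiers both HET sums lay below both WT sums, at 5.46 and 5.30 TPM in HET and 5.63 and 6.38 TPM in WT. Their most abundant gene, Kcng1, lay below WT, while 4 of the 6 tested had a log2 fold change above 0 and 2 below 0. Auxiliary subunits summed to 27.3 and 22.2 TPM in HET and 16.5 and 22.2 TPM in WT, both replicates 2 being nearly equal.

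**Figure D1:**
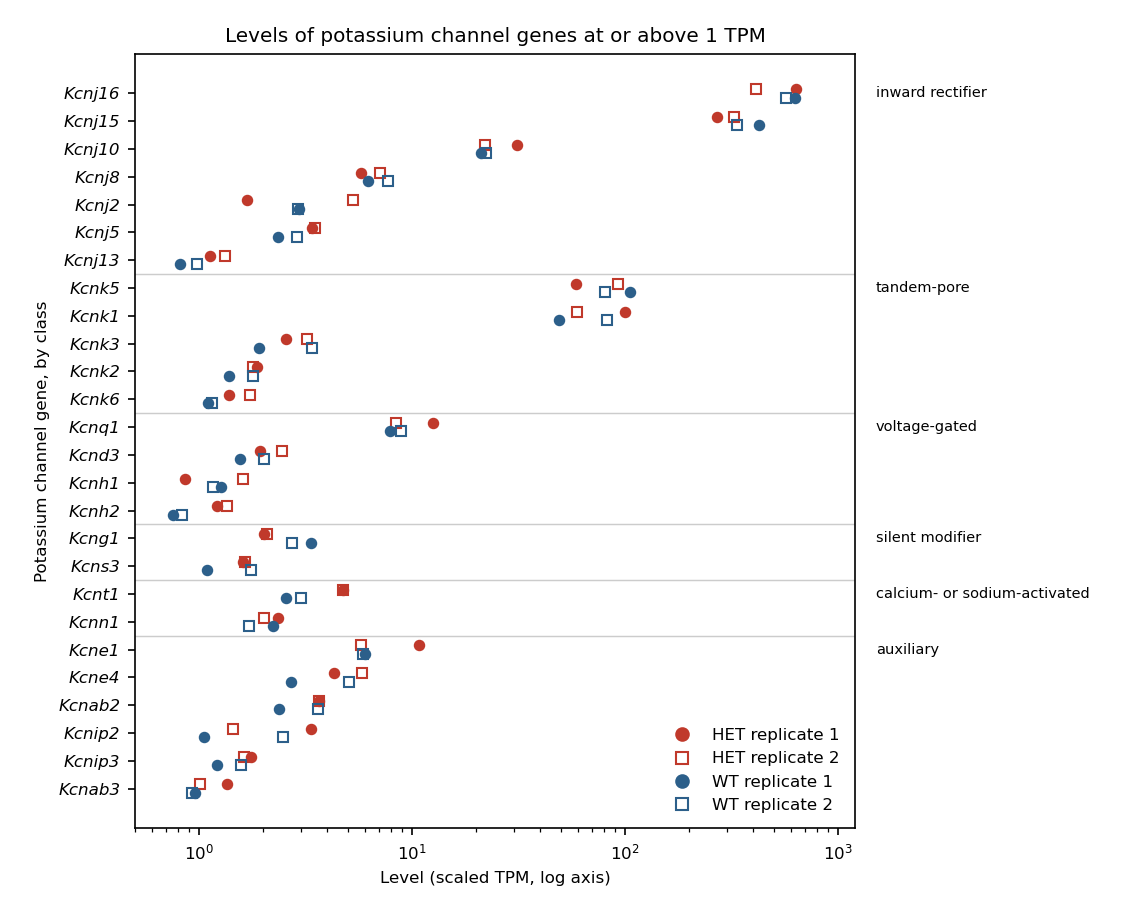
Scaled TPM of 26 potassium channel genes averaging at least 1 TPM, on a log axis, by class, with 1 point for each HET and WT library (HET above WT within a gene). Levels span from about 1 TPM to the 635 TPM of Kcnj16 in HET replicate 1, and the points of most genes sit close together relative to the differences between genes.

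No member passed the test between genotypes. Of the 65 members with enough reads to test, 0 were called by limma at a Benjamini-Hochberg adjusted p below 0.1, where 0.00895% of all genes tested were called (2 of 22356). At an unadjusted p below 0.05 there were 4 members, Kcnt1, Kcnd1, Kcng1 and Kcnh2, which is 6.15%, near the 7.26% of all genes at such a p. Limma-voom on the recovered reads called 0 members and 0 of all genes, and had 5 members (7.69%) at an unadjusted p below 0.05, near the 7.92% of all genes in that fit. The lowest adjusted p of any member was 0.622 in limma on scaled TPM and 0.569 in limma-voom. With 2 libraries on each side, the smallest two-sided p of an exact permutation test is 0.33. Of the 26 members not tested, the most reads in a library were 31.

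More members lay above WT than below. Both HET-labelled libraries exceeded both WT libraries for 24 of the 65 members tested (36.9%), against 21.8% of all genes, and were below both for 4 (6.15%), against 23.1% of all genes. The groups overlapped for the other 37. The filter on low reads was passed in every library by 20 of the 24 and by all 4. Kcnj14 and Kcnq5, both among the 24, passed it only through the HET libraries, which favours this order. The log2 fold change was above 0 for 51 members and below 0 for 14, with a median of 0.16, while the median over all genes was 0.0067. These are descriptions, and 1 library weighs on them: WT replicate 1 held the lowest value of 39 of the 65 members (60%), where it held the lowest of 33.8% of all genes. Macrophage markers were ordered the same way, 3 of 4 lying above WT, with a sum of 110 and 98.9 TPM in HET, against 82.4 and 85.7 TPM in WT, and their part in these counts was not tested. Without WT replicate 1, HET lay above the remaining WT library for 27 of 66 members (40.9%, against 30% of all genes) and below for 12 (18.2%, against 32.3%), with a median of 0.069 (log2). When WT replicate 2 was left out instead, the counts were 43 above (68.3%, against 38.7% of all genes) and 6 below (9.52%, against 39.4%), with a median of 0.24. Leaving out HET replicate 1 gave 36 of 62 above (58.1%, against 36.8% of all genes) and 10 below (16.1%, against 40.1%). Leaving out HET replicate 2 gave 36 of 62 above (58.1%, against 36.8%) and 11 below (17.7%, against 36%). Without scaling of the TPM, 35 lay above (53.8%, against 49.7% of all genes) and 2 below (3.08%, against 4.45%). With at least 1 read in 1000000 required in 2 libraries, 15 of 39 lay above (38.5%, against 19.9%) and 3 below (7.69%, against 27%). Median-of-ratios scaling gave 23 above (35.4%, against 21.1%) and 4 below (6.15%, against 23.9%).

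**Figure D2:**
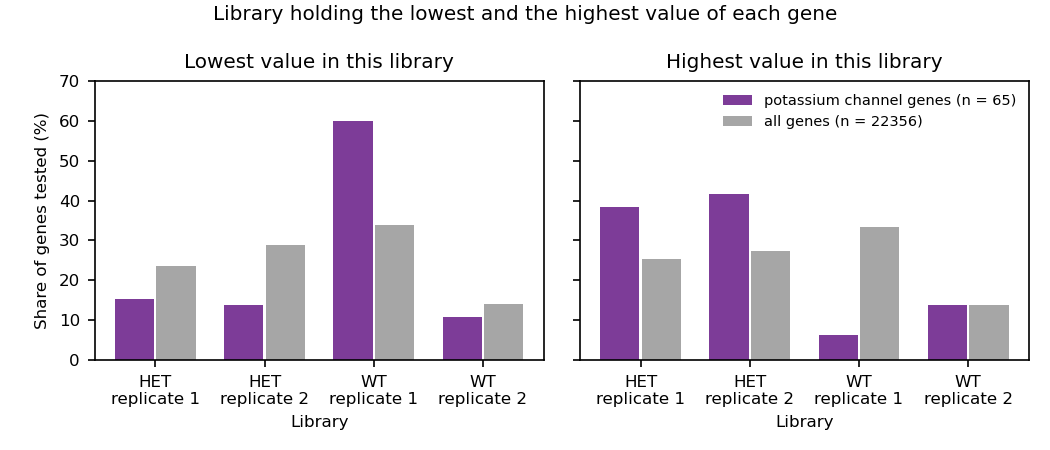
Share, in percent, of the 65 potassium channel genes tested and of all 22356 genes tested whose lowest (left) or highest (right) value lay in each HET and WT library. WT replicate 1 held the lowest value of 60% of the members and the highest value of 6.15%, against 33.8% and 33.3% of all genes.

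**Figure D3:**
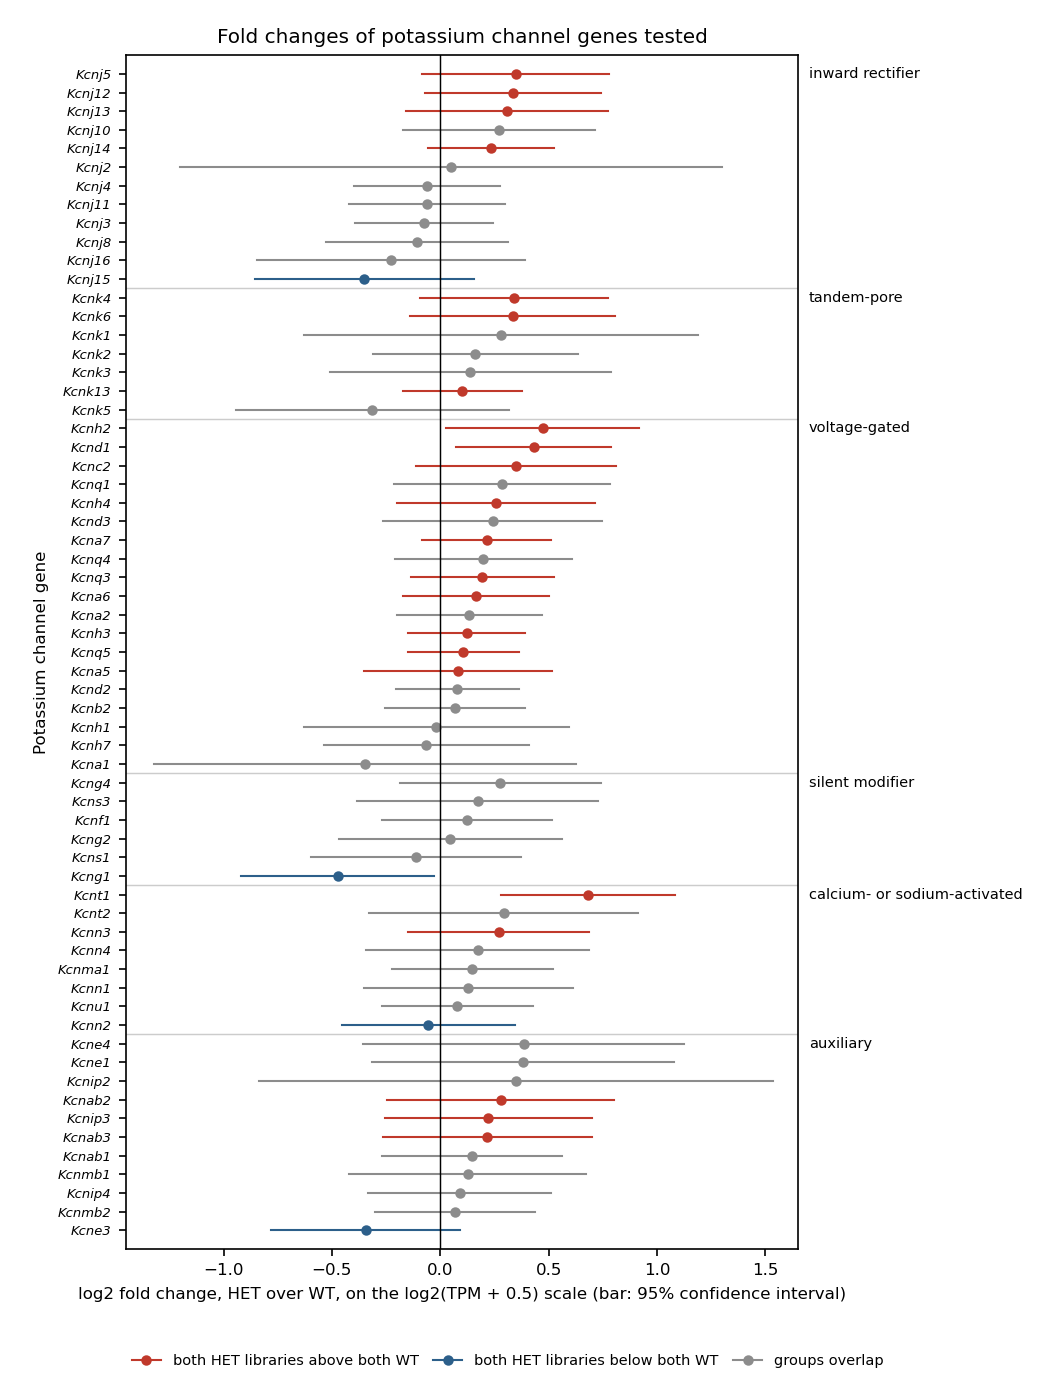
Log2 fold change of HET over WT on the log2(TPM + 0.5) scale for 63 members tested, by class, with 95% confidence intervals from limma; colour shows whether the HET pair lay above the WT pair, below it, or overlapped it. Points lie to the right of 0 for 49 of the 63, and the intervals of Kcnt1, Kcnd1, Kcng1 and Kcnh2 do not reach 0.

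The inward rectifiers Kcnj16, Kcnj15 and Kcnj10 build the basolateral potassium conductance of tubule cells, where Kcnj16 pairs with Kcnj10 in the distal nephron and with Kcnj15 in the proximal tubule. Kcnj16 (ENSMUSG00000051497, chromosome 11, 110968033 to 111027968) was at 635 and 412 TPM in HET, against 629 and 569 TPM in WT. HET replicate 1 was the highest library and HET replicate 2 the lowest, so the groups overlapped, with a log2 difference of -0.23 ± 0.26 (SE), adjusted p = 0.747 in limma. Kcnj15 (ENSMUSG00000062609, chromosome 16) was at 270 and 324 TPM in HET, against 425 and 335 TPM in WT. Both HET libraries lay below both WT libraries, by a log2 fold change of -0.35 ± 0.21 (SE), 95% confidence limits -0.85 and 0.15, adjusted p = 0.625 in limma. Kcnj10 (ENSMUSG00000044708, chromosome 1) was at 31.1 and 22.0 TPM in HET, against 21.1 and 22.2 TPM in WT, and only HET replicate 1 stood above the rest. That library was also the highest in the sum of 4 markers of the distal convoluted and connecting tubule, 437 and 240 TPM in HET, against 233 and 250 TPM in WT. None of them was at 0, and 2 of the 4 lay above WT in both HET libraries. Among them Calb1, which encodes the calcium buffer calbindin, was at 237 and 94.1 TPM in HET, against 83.8 and 89.7 TPM in WT. HET replicate 1 was highest too in the marker sums of the thick ascending limb, intercalated cells, podocytes and macrophages, though not of the proximal tubule. A sum follows its most abundant markers, and single markers differed. Of 4 thick ascending limb markers 1 lay above WT, 2 overlapped, and Cldn10 lay below, at 149 and 134 TPM in HET, against 243 and 162 TPM in WT. Of 5 proximal tubule markers 2 lay above and 3 below. C1qa and C1qb were highest in HET replicate 1, Adgre1 in HET replicate 2 and Csf1r in WT replicate 1. For principal cells the marker sum was 599 and 375 TPM in HET, against 462 and 493 TPM in WT. The part of these differences in the level of Kcnj10 was not tested.

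The other inward rectifiers among the members were far less abundant. Kcnj8, the pore subunit of ATP-sensitive channels in vascular muscle and pericytes, was at 5.76 and 7.04 TPM in HET, against 6.20 and 7.67 TPM in WT. Kcnj2, a strong inward rectifier of muscle and endothelium, was at 1.68 and 5.26 TPM in HET, against 2.93 and 2.92 TPM in WT: the HET libraries lay on either side of WT, and the 95% confidence interval of the log2 fold change ran from -1.20 to 1.30. Kcnj5, a subunit of channels opened by G-proteins, was at 3.39 and 3.50 TPM in HET and 2.34 and 2.89 TPM in WT (log2 fold change 0.35 ± 0.18, SE; limma adjusted p = 0.622). Kcnj12, a muscle inward rectifier, was at 0.833 and 0.894 TPM in HET and 0.561 and 0.599 TPM in WT. Both lay above WT, as did Kcnj13 and Kcnj14. Kcnj14 had 18 and 16 reads in HET and 6 and 9 in WT, so it passed the filter on low reads only through the HET libraries, which favours this order; the same holds for the voltage-gated gene Kcnq5. Of the exon bases of Kcnj13, 49.1% are shared with Gigyf2 on the opposite strand, so its reads are uncertain. In all, 6 members share over 10% of their exon bases with other genes, and the same limit holds for them. Among these are Kcna6 (39.6%), which is counted above WT, Kcnmb4 (31.5%), Kcnj3 (31.1%) and Kcnk2 (12.2%). Kcnj11, the ATP-sensitive channel subunit of pancreatic beta cells, was at 0.433 and 0.334 TPM in HET and 0.410 and 0.431 TPM in WT.

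Kcnk5 and Kcnk1 carried nearly all of the tandem-pore RNA. Kcnk5, an alkaline-activated basolateral channel of the proximal tubule that is linked to bicarbonate recovery, was at 58.8 and 92.7 TPM in HET, against 105 and 80.3 TPM in WT. Kcnk1, a weakly conducting channel of tubule cells, was at 99.8 and 59.5 TPM in HET, against 49.1 and 81.8 TPM in WT. The libraries of each genotype were at least as far apart as the means of the genotypes, with log2 fold changes of -0.31 ± 0.26 for Kcnk5 and 0.28 ± 0.35 for Kcnk1 (SE). Among the rest, Kcnk6 was at 1.38 and 1.74 TPM in HET and 1.11 and 1.15 TPM in WT, and Kcnk4, a mechanosensitive channel, was at 0.716 and 0.833 TPM in HET and 0.420 and 0.598 TPM in WT. Both lay above WT, as did Kcnk13 at 0.160 and 0.138 TPM in HET and 0.0991 and 0.110 TPM in WT. Kcnk3, an acid-inhibited channel, was at 2.56 and 3.21 TPM in HET and 1.91 and 3.39 TPM in WT, and Kcnk2, another mechanosensitive channel, at 1.87 and 1.79 TPM in HET and 1.39 and 1.79 TPM in WT. Of the 14 members, 7 were tested.

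Of the 21 voltage-gated genes tested, 12 lay above WT (57.1%, against 21.8% of all genes) and 0 below (against 23.1%), and the median log2 fold change was 0.19. Kcnq5 is among the 12, and it passed the filter on low reads only through the HET libraries, which favours this order. With WT replicate 1 left out, 13 of 22 lay above (59.1%, against 30% of all genes) and 2 below (9.09%, against 32.3%), and with HET replicate 2 left out 12 of 19 lay above (63.2%, against 36.8%) and 2 below (10.5%, against 36%). No order of the classes is drawn from these shares, since tandem-pore genes had a higher one without HET replicate 2 (5 of 7) and without WT replicate 2 (6 of 7, against 16 of 21 voltage-gated genes). The median was 0.54 with limma-voom and 0.10 without HET replicate 2. The neuronal marker Snap25 had 1 and 8 reads in HET and 0 in both WT libraries, and the part of nerve tissue in these levels was not tested. Kcnq1, which with Kcne1 makes a slow channel of heart and proximal tubule, was at 12.5 and 8.39 TPM in HET, against 7.86 and 8.84 TPM in WT, so that only HET replicate 1 stood out. Kcnh2, the cardiac rapid delayed rectifier, was at 1.22 and 1.36 TPM in HET, against 0.750 and 0.827 TPM in WT. The HET mean was 1.63 times the WT mean. On the log2(TPM + 0.5) scale the difference was 0.47 ± 0.18 (SE), adjusted p = 0.622 in limma.

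Kcnc2, a channel of fast-spiking neurons, was at 1.05 and 0.869 TPM in HET and 0.548 and 0.744 TPM in WT, with HET above. Kcnd3, which carries transient A-type current, was at 1.94 and 2.45 TPM in HET and 1.55 and 2.01 TPM in WT, with the groups overlapping. Kcna1, linked to magnesium recovery in the distal convoluted tubule, was at 0.33 and 0.287 TPM in HET, against 0.201 and 1.01 TPM in WT, and WT replicate 2 stood apart. Kcnd1, a further A-type gene, was chosen after its values were seen. It lies on the X chromosome and was at 0.515 and 0.487 TPM in HET and 0.195 and 0.294 TPM in WT (log2 fold change 0.43 ± 0.15, SE; limma adjusted p = 0.622). Xist also lay above WT in both HET libraries, and its part in the Kcnd1 level was not tested. Kcna10, a proximal tubule channel, had 3 and 2 reads in HET and 0 in both WT libraries, too few to test.

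Kcnt1, a sodium-activated channel gene, had the lowest p of all members. It (ENSMUSG00000058740, chromosome 2, 25863734 to 25918273) was at 4.74 and 4.75 TPM in HET, against 2.56 and 3.00 TPM in WT, from 1358 and 1578 reads in HET and 708 and 918 reads in WT. The libraries of each genotype lay close together and the groups did not overlap, the HET mean being 1.71 times the WT mean. On the log2(TPM + 0.5) scale HET was 0.68 ± 0.17 (SE) above WT, 95% confidence limits 0.28 and 1.08, and the limma p adjusted over all genes was 0.622. With 1 library left out the log2 fold change was 0.59 to 0.77 and the adjusted p 0.405 to 1.00. Kcnt1 was also the only member in the authors' deposited table of 97 genes, where its log2 fold change was 0.64 with a standard error of 0.16 and an adjusted p of 0.0225; both values come from the same 4 libraries.

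**Figure D4:**
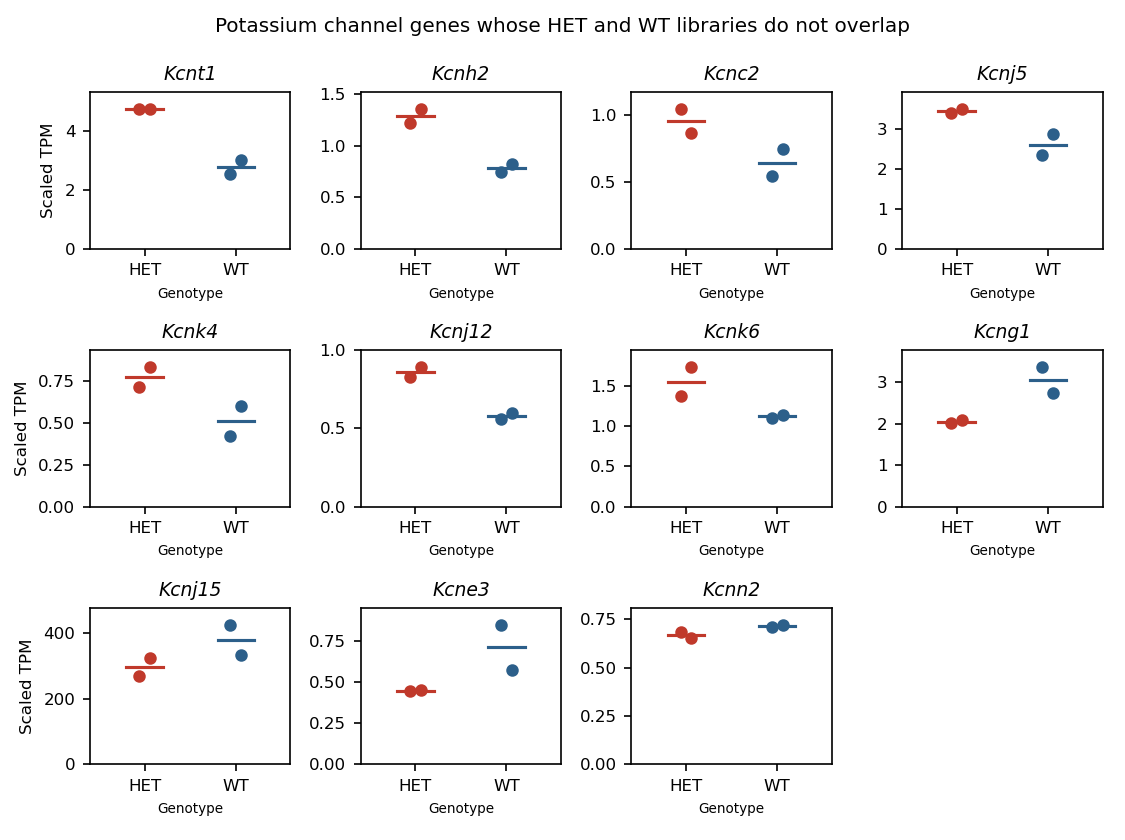
Scaled TPM of 11 members whose HET and WT libraries did not overlap, with points for libraries and a line at the mean of each genotype. For Kcnt1 the HET libraries sit at 4.74 and 4.75 TPM and the WT libraries at 2.56 and 3.00 TPM; none of the 11 passed the test.

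Of the 8 calcium- or sodium-activated genes tested, Kcnt1 and Kcnn3 lay above WT (25%, against 21.8% of all genes) and Kcnn2 below (12.5%, against 23.1%). Kcnn3, a small-conductance channel gene named after its values were seen, was at 0.575 and 0.591 TPM in HET and 0.308 and 0.499 TPM in WT. Kcnt2, the paralog of Kcnt1, was at 0.823 and 1.25 TPM in HET and 0.532 and 0.996 TPM in WT. Kcnn1 and Kcnn2 encode small-conductance calcium-activated channels. Kcnn1 was at 2.34 and 2.02 TPM in HET and 2.21 and 1.71 TPM in WT, and Kcnn2 at 0.685 and 0.656 TPM in HET and 0.712 and 0.722 TPM in WT; the difference of Kcnn2 was -0.056 (log2) and was 0.091 without scaling of the TPM. Kcnma1, the large-conductance channel of flow-induced potassium secretion, was at 0.395 and 0.301 TPM in HET and 0.206 and 0.328 TPM in WT. Kcnn4, the intermediate-conductance channel of red cells and lymphocytes, was at 0.279 and 0.637 TPM in HET and 0.389 and 0.286 TPM in WT, with HET replicate 2 the highest. Kcna3, a lymphocyte channel chosen after its values were seen and not tested, was highest there too, at 0.122 and 0.466 TPM in HET and 0.0901 and 0.163 TPM in WT. The sum of 4 lymphocyte markers was 0.807 and 14.0 TPM in HET, against 0.738 and 1.69 TPM in WT; all 4 were above 0 in every library, and the groups overlapped for each. Their part in these levels was not tested.

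**Figure D5:**
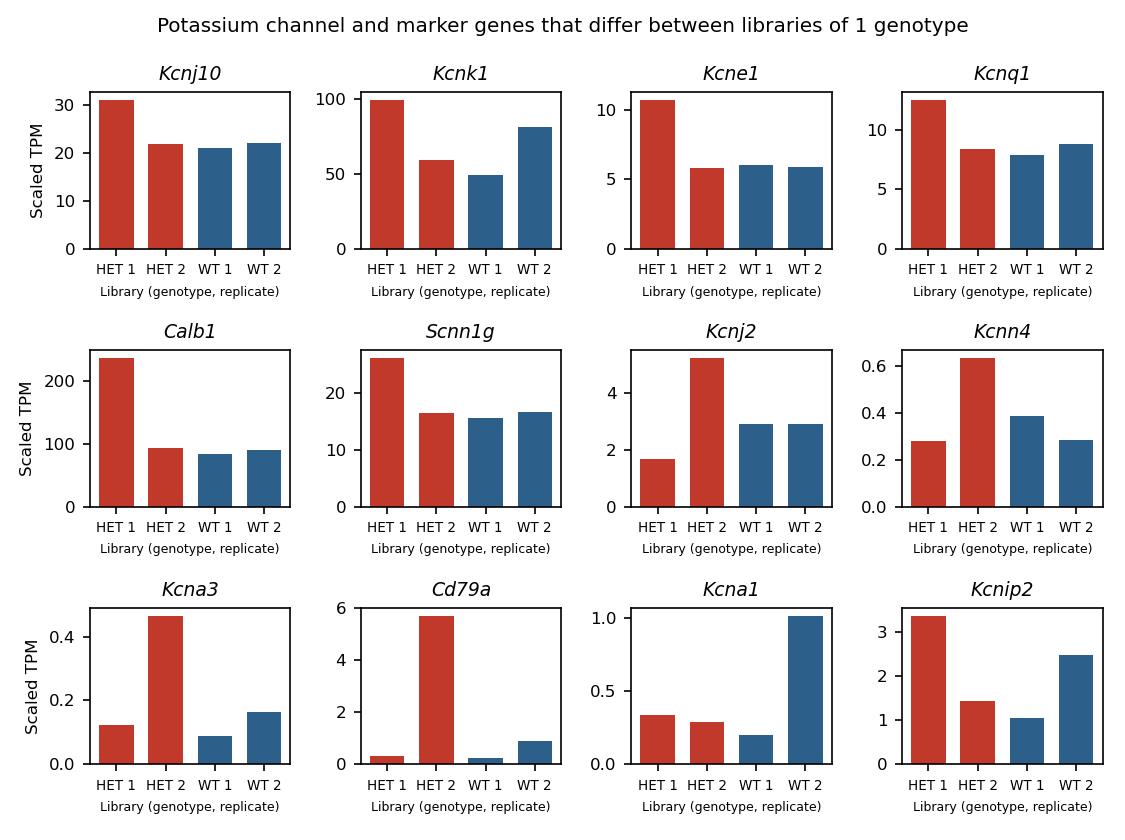
Scaled TPM in each HET and WT library of 9 potassium channel genes chosen after their values were seen because libraries of 1 genotype differed, beside the distal marker Calb1, the sodium channel gene Scnn1g and the B-cell marker Cd79a. Calb1 is at 237 TPM in HET replicate 1, while Cd79a is at 5.73 TPM in HET replicate 2 and below 1 TPM in the other libraries.

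Of 6 silent modifiers tested, 1 lay below WT (16.7%, against 23.1% of all genes) and 0 above (against 21.8%). Kcng1 (ENSMUSG00000074575, chromosome 2) was at 2.02 and 2.09 TPM in HET, against 3.37 and 2.74 TPM in WT. The groups did not overlap, the HET mean was 0.671 times that of WT, and the difference on the log2(TPM + 0.5) scale was -0.47 ± 0.18 (SE), 95% confidence limits -0.92 and -0.03, adjusted p = 0.622 in limma. Kcns3 was at 1.62 and 1.64 TPM in HET and 1.08 and 1.76 TPM in WT, Kcng2 at 0.711 and 0.488 TPM in HET and 0.413 and 0.728 TPM in WT, and Kcns1 at 0.575 and 0.327 TPM in HET and 0.417 and 0.630 TPM in WT. These 3 overlapped.

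Of 11 auxiliary subunits tested, 3 lay above WT (27.3%, near the 21.8% of all genes) and 1 below (9.09%, against 23.1%). Kcne1, the partner of Kcnq1, was at 10.7 and 5.78 TPM in HET, against 6.02 and 5.87 TPM in WT. As for Kcnq1 and Kcnj10, HET replicate 1 alone was high. Kcne4, an inhibitor of Kcnq1 channels, was at 4.31 and 5.81 TPM in HET, against 2.70 and 5.08 TPM in WT. Kcnab2, the aldo-keto reductase-like subunit of Kcna channels, was at 3.65 and 3.66 TPM in HET, against 2.36 and 3.60 TPM in WT, so that WT replicate 1 alone was low. Kcnip2, the calcium-binding subunit of Kcnd channels, was at 3.36 and 1.44 TPM in HET, against 1.06 and 2.47 TPM in WT, a 2.34-fold spread within each genotype. Kcne3, which holds Kcnq1 open in epithelia, was at 0.448 and 0.450 TPM in HET, against 0.848 and 0.576 TPM in WT, the HET libraries below WT (log2 fold change -0.34 ± 0.18, SE; limma adjusted p = 0.622). Kcnmb1, the smooth muscle partner of Kcnma1, was at 0.697 and 1.05 TPM in HET and 0.597 and 0.919 TPM in WT, and Kcnmb4 had 4 and 9 reads in HET and 2 and 8 in WT.

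Neighbouring members could differ widely in level, as in 3 pairs chosen after their values were seen. Kcnj16 and Kcnj2 are 38.2 kb apart on chromosome 11 and averaged 561 and 3.20 TPM over the 4 libraries. Kcnj9 and Kcnj10, 11.9 kb apart on chromosome 1, averaged 0.0268 and 24.1 TPM. Kcne2 and Kcne1, 47.9 kb apart on chromosome 16, averaged 0.140 and 7.10 TPM.

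Other genes of potassium handling were read from a list of 49 pumps, cotransporters, channel partners and regulators. Of the 46 tested, 0 were called by limma, and 2, Slc12a3 and Sgk1, had an unadjusted p below 0.05 (4.35%, against 7.26% of all genes). Limma-voom also called 0. The HET pair was above the WT pair for 9 (19.6%, against 21.8% of all genes) and below it for 5 (10.9%, against 23.1%), and the median log2 fold change was 0.067. Slc12a3, the thiazide-sensitive cotransporter of the distal convoluted tubule, was at 83.1 and 69.8 TPM in HET, against 45.6 and 54.3 TPM in WT. Sgk1, a kinase induced by aldosterone, was at 117 and 77.8 TPM in HET, against 56.7 and 66.3 TPM in WT. Atp4a, a proton-potassium pump, was at 5.58 and 1.77 TPM in HET, against 9.95 and 7.14 TPM in WT. It was called by limma without HET replicate 1, with a log2 fold change of -1.97 (limma adjusted p = 0.0304), and by no other fit run.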

How the data were processed

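The authors deposited TPM for 54232 genes in 2 HET and 2 WT libraries, with the summed exon length in bases of each gene. Per the file headers the values come from alignments marked unique, and the submitters' processing notes list mm10, DESeq, DESeq2 and edgeR. No source used here names the aligner, read counter or strand setting, so reads of overlapping or antisense genes cannot be told apart. For 97 genes the authors deposited their own comparison: a mean normalized count (a signal), log2 fold change and standard error, a score (the test statistic), and p-values before and after adjustment.

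TPM times exon length gave whole reads for 100% of values above 0, within 0.001 reads. They served for depth, filtering, limma-voom and trimmed mean of M values (TMM) factors, which were 1.05 and 1.07 for HET replicates 1 and 2 and 0.901 and 0.989 for WT replicates 1 and 2. The 22356 genes with 15 reads in all, and in 2 libraries 10 or more after setting depth to the median, were tested. The test was limma 3.58.1 (R 4.3.3; trended variance, robust moderation with statmod 1.5.0) on scaled TPM as log2(TPM + 0.5). Fold changes of genes at low levels are understated on this scale. P-values were adjusted by Benjamini-Hochberg over all genes tested, and genes were called below 0.1. Both libraries of a genotype differed beyond counting error (chi-square per degree of freedom 73.2 for HET and 70.6 for WT).

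In simulated reads of the HET vs WT comparison (21976 genes tested) 50 genes were changed at each of 4 sizes. The changed genes were drawn from those averaging at least 50 reads. Calls were made for 33 at 2-fold, 49 at 4-fold and all 50 at 8-fold and at 16-fold, and for 17 unchanged genes. Genes with fewer reads, among them many members, were not covered. So many changed genes also make the adjusted cut easier to pass than in the real comparison. Alternatives were another pseudocount (0.1 or 1), no scaling or median-of-ratios scaling, no or a stricter filter, limma-voom, no robust moderation, a replicate block and each library left out. Named genes were members in the authors' table, the 4 most abundant of each class, up to 8 per direction of at least 0.5 TPM whose groups did not overlap, members with a known renal or vascular place, and the 2 of at least 0.5 TPM that varied most within a genotype. Other members with a fold change are marked as chosen after their values were seen. The members and lists were chosen with earlier results of these data known. GENCODE M21 holds all 91 members, 87 with the same start and end. Some genes are not reported here.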

Additional observations from a re-analysis of the deposited data

How the results depend on the processing

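None of the 65 potassium channel genes tested was called under any of the 13 alternatives run, and the named genes gave 0 adjusted p below 0.1 among 499 values. Their log2 fold change reversed in 28 of these values, over 18 of 39 genes. Without scaling of the TPM, which moves the median of all genes to 0.20, it was 0.050 for Kcnj11, 0.029 for Kcnj16, 0.13 for Kcnj8, 0.091 for Kcnn2 and 0.0047 for Kcns1. With 1 library left out it ran from -0.92 to 0.21 for Kcna1, -0.037 to 0.80 for Kcne1, -0.016 to 0.77 for Kcne4, -0.17 to 0.25 for Kcng2, -0.15 to 0.84 for Kcnip2, -0.14 to 0.019 for Kcnj11, -0.54 to 0.085 for Kcnj16, -0.65 to 0.75 for Kcnj2, -0.25 to 0.028 for Kcnj8, -0.091 to 0.65 for Kcnk1, -0.21 to 0.48 for Kcnk3, -0.64 to 0.013 for Kcnk5, -0.059 to 0.31 for Kcnmb1, -0.030 to 0.28 for Kcnn1, -0.099 to 0.44 for Kcnn4, -0.30 to 0.077 for Kcns1 and -0.084 to 0.42 for Kcns3. The members' median log2 fold change was 0.28 with a pseudocount of 0.1, 0.29 without scaling, 0.32 with limma-voom and 0.069 to 0.24 with 1 library left out. Members with HET above WT numbered 15 with at least 1 read in 1000000 in 2 libraries (fewer genes tested), 35 without scaling (where 49.7% of all genes were) and 27 to 43 with 1 library left out, and those below 2 without scaling and 6 to 12 with 1 left out. With a lone library of a genotype left, that library is assumed to vary like the others. The count of all genes called was 0 with no filter on low reads and with limma-voom, 1 without robust moderation, 5 with at least 1 read in 1000000 and 0 to 105 with 1 library left out. For the potassium handling list it was 0 to 1 with 1 left out. The cause of these shifts was not tested.

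The labels give both genotypes replicates 1 and 2, without saying that equal numbers share an origin. Deviations of same-numbered libraries correlated at 0.123 across genes, over 2 pairs only, so whether equal numbers pair the libraries is not settled. With a replicate block, 0 members and 0 of all genes were called.

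With 2 pools a genotype, the 95% confidence interval of Kcnk1 (-0.63 to 1.19, log2) does not separate no difference from a change above 2-fold. The intervals of Kcnj16 (-0.84 to 0.39), Kcnj15 (-0.85 to 0.15), Kcnk5 (-0.94 to 0.32) and Kcnj10 (-0.17 to 0.71) also held 0. They stayed within a 2-fold change, and they rest on the spread between pools only.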

Other observations

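Of 7 ratios between members or partners, chosen after the values were seen and given with no test, 2 did not overlap between genotypes. Among all single genes tested, 21.8% had HET above WT and 23.1% HET below, so a lack of overlap is common. No such share was taken for ratios. Kcnj16 over Kcnj10, the pair of the distal basolateral channel, was 20.4 and 18.7 in the libraries labelled HET, against 29.9 and 25.7 in the WT libraries. Kcnj16 also pairs with Kcnj15 in the proximal tubule, so this ratio in whole kidney is not that of the distal channel alone. Kcnj8 over Abcc9, the pore and the regulatory subunit of the vascular ATP-sensitive channel, was 1.69 and 1.46 in HET, against 1.76 and 2.13 in WT. Kcnq1 over Kcne1 overlapped, at 1.17 and 1.45 in HET and 1.31 and 1.51 in WT, although both genes were highest in HET replicate 1.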
